A study of Saccharomyces cerevisiae with 9 samples.

Results

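The genes described here are 10 that encode methyltransferases acting on proteins of the ribosome or on arginine residues, out of 7126 genic regions measured in Saccharomyces cerevisiae. They were chosen by the function of their products and not by a measured value: RKM1, RKM2, RKM3, RKM4 and RKM5, which encode lysine methyltransferases, TAE1 for an amino-terminal methyltransferase, HPM1 for a histidine methyltransferase, and SFM1, HMT1 and RMT2 for arginine methyltransferases. Poly-A RNA was sequenced from diploid W303 strains of 3 genotypes, with 3 libraries each: wildtype, sam1Δ/sam1Δ and sam2Δ/sam2Δ. SAM1 and SAM2 encode the synthases that make S-adenosylmethionine (AdoMet), the methyl donor of these enzymes, and the comparisons ask how loss of either synthase changed transcript levels. The sam1Δ/sam1Δ strain carries sam1::KANMX and was grown in synthetic complete (SC) medium with G418, the sam2Δ/sam2Δ strain carries sam2::LEU2 and was grown in SC without leucine, and wildtype was grown in SC, all at 30 °C to an OD600 of 0.5 to 0.6. All 3 strains share the MATa/α background with leu2-3, his3-Δ200, trp1-Δ1, ura3-52, can1-100/CAN1 and ade2-101, a heterozygous LYS2 locus, and a chromosome fragment marked with ura3::TRP1 and SUP11. The labels name 1 strain for each genotype, so deletion, marker, medium and strain change together and cannot be told apart.

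Ribosomal proteins carry methyl groups on lysine, arginine and histidine side chains and on their amino termini, each placed by a dedicated enzyme that uses AdoMet. In yeast, Rkm1 methylates Rpl23 and Rps18, Rkm2 methylates Rpl12, Rkm3 and Rkm4 methylate different lysines of Rpl42, and Rkm5 methylates Rpl1. Tae1 methylates the amino termini of Rpl12 and Rps25, Hpm1 methylates a histidine of Rpl3, Sfm1 an arginine of Rps3 and Rmt2 an arginine of Rpl12, while Hmt1 is the main arginine methyltransferase of RNA-binding proteins such as Npl3 and of Rps2.

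The unit throughout is signal, the estimated reads of a gene divided by a size factor of its library, and library totals were 9.38 to 11.9 M. From the step between values, 1 read was worth 0.443 to 2.18 units and libraries held about 4.90 to 23.8 M reads. SAM1 had signals of 1.06, 1.77 and 0 in sam1Δ/sam1Δ, and SAM2 of 2.43, 4.36 and 6.89 in sam2Δ/sam2Δ, against at least 4589 and 17280.0 in wildtype, as the labels say. Libraries of a strain differed in other genes. In wildtype replicate 1 the summed signal of 18 ribosome assembly factors was 94896, against 26829 and 31613 in the other 2 wildtype libraries. The same sum was 25904 in sam1Δ/sam1Δ replicate 1 against 59090 and 53302 in replicates 2 and 3. It was 18946 and 30313 in sam2Δ/sam2Δ replicates 1 and 2 against 53590 in replicate 3. In sam2Δ/sam2Δ replicate 3 the summed signal of 4 alpha-specific mating genes, which a/α diploids keep low, was 2319.9 against 412 to 551 in the other 8, that of 8 haploid-specific genes was 2333 against 791 to 1379, and that of 6 a-specific genes was 574, inside the range of the others (424 to 876). By gene, 7 of the 8 haploid-specific and 3 of the 4 alpha-specific genes had their highest value of the 9 libraries there, and of the 18 only MFA2 was listed at 0, in sam2Δ/sam2Δ replicate 1. The part of these differences in the results was not tested. Values without wildtype replicate 1 or without sam2Δ/sam2Δ replicate 3 are given below. In bulk RNA, fewer cells of a type and less RNA per cell cannot be told apart. Nothing in the labels says that libraries of a strain came from separate cultures, so P values measure only the spread between these libraries.

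The levels of the 10 genes differed more from gene to gene than from strain to strain. Divided by coding length, SFM1 had the highest wildtype level, 2244 ± 1169 signal per kb (SD, n = 3), higher than 83.7% of 5122 genes alone at their locus. The other arginine methyltransferase genes and TAE1 followed, HMT1 at 1119.7 ± 945, RMT2 at 986 ± 844 and TAE1 at 819 ± 419.9 signal per kb. The lysine methyltransferase genes and HPM1 formed the lower part of the order: RKM3 (389 ± 141), HPM1 (345 ± 127), RKM4 (232 ± 64.7), RKM1 (229 ± 61.7), RKM2 (176 ± 59.9) and RKM5 (113 ± 21.6 signal per kb, higher than 12.2% of the genes). In wildtype the libraries of each neighbouring pair in this order overlapped, except RKM2 and RKM5. By wildtype mean, transcripts of the 5 lysine enzymes lay below the middle of the genes measured and those of the 3 arginine enzymes above it. The means of HMT1 and RMT2 were raised by wildtype replicate 1, with 2209 and 1959 signal per kb. In wildtype replicates 2 and 3 HMT1 had 530 and 620 and RMT2 455 and 543. The order of the mean levels was nearly kept in sam1Δ/sam1Δ, where HPM1 (339.7 ± 60.8) and RKM3 (321 ± 47.7 signal per kb) changed places within overlapping ranges. In sam2Δ/sam2Δ, RKM4 moved from the seventh to the fourth place, with 406 ± 83.0 signal per kb, just above TAE1 with 367 ± 40.5, although the libraries of these genes overlapped there.

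**Figure D1:**
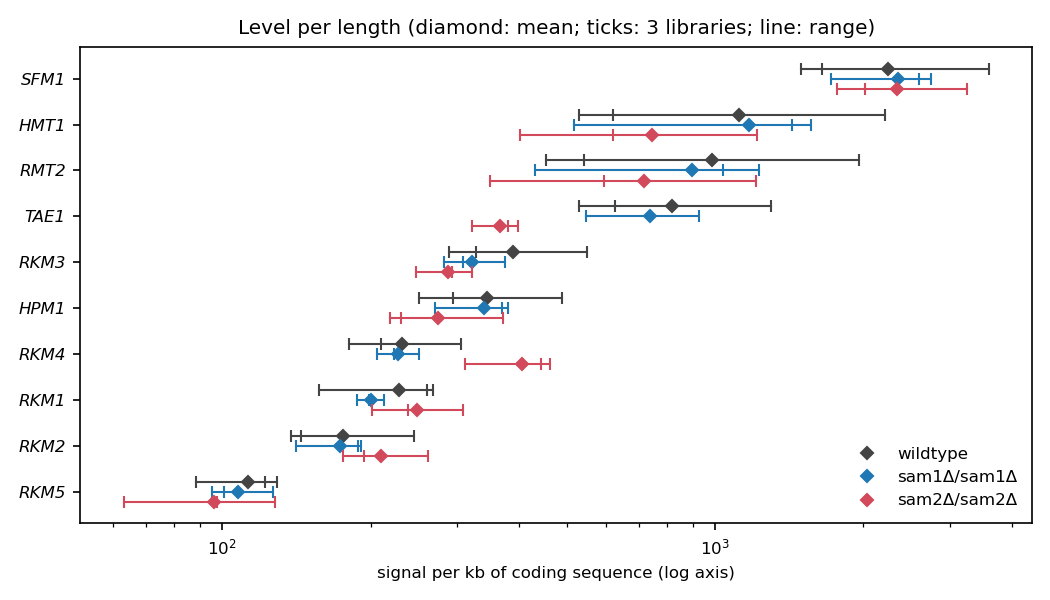
Level per length of the 10 genes on a log axis (signal per kb of coding sequence), with the genes ordered by wildtype mean, a diamond for the mean of 3 libraries, ticks for the libraries and a line for their range. SFM1 lies highest in every strain and RKM5 lowest, and the mean of RKM4 lies below that of TAE1 in wildtype and sam1Δ/sam1Δ and above it in sam2Δ/sam2Δ.

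Among the lysine methyltransferase genes, RKM4 differed between strains and the other 4 did not pass the cutoffs, an unadjusted P of at most 0.05 with a log2FC of at least 0.58 in size by limma. Over all genes tested, 1.15% passed these cutoffs in sam1Δ/sam1Δ against wildtype, 9.85% in sam2Δ/sam2Δ against wildtype and 10.2% in sam2Δ/sam2Δ against sam1Δ/sam1Δ, and the groups did not overlap for 6.53%, 22.3% and 25.4%. RKM4 (YDR257C; chromosome IV, 969990 to 971474 of the R64 assembly, reverse strand), whose product methylates Rpl42, had signals of 452, 312 and 268 in wildtype, 332, 373 and 306 in the sam1Δ/sam1Δ libraries and 659, 462 and 688 in those of sam2Δ/sam2Δ. Each of the 3 sam2Δ/sam2Δ libraries lay above all 6 others, and wildtype and sam1Δ/sam1Δ overlapped. Its mean was 344 ± 96.1 in wildtype (SD, n = 3), 337 ± 33.7 in sam1Δ/sam1Δ, and in sam2Δ/sam2Δ 603 ± 123, on 212 estimated reads or more in every library. It was 1.77-fold higher in sam2Δ/sam2Δ than in wildtype (log2FC 0.82, SE 0.26, 95% interval 0.20 to 1.45, Benjamini-Hochberg adjusted P = 0.282, limma). This rise did not pass adjustment over the 6099 genes tested. Against sam1Δ/sam1Δ, a comparison that uses the same sam2Δ/sam2Δ libraries, the log2FC was 0.82 (SE 0.23, adjusted P = 0.126, limma). The call against wildtype was lost without wildtype replicate 2 (log2FC 0.77), wildtype replicate 3 (0.66), sam2Δ/sam2Δ replicate 1 (0.75) or sam2Δ/sam2Δ replicate 3 (0.72). Without both wildtype replicate 1 and sam2Δ/sam2Δ replicate 3 it held at 0.93, and against sam1Δ/sam1Δ it held without any 1 library.

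RKM3 (YBR030W; chromosome II, 298292 to 299950) encodes the other Rpl42 enzyme, and its signals were 914, 479 and 544 in wildtype, 468, 621 and 511 in the sam1Δ/sam1Δ libraries and 410.2, 534 and 485 in those of sam2Δ/sam2Δ. The sam2Δ/sam2Δ libraries overlapped both other strains, with a log2FC of -0.39 against wildtype (95% interval -1.04 to 0.26), and wildtype replicate 1 was the highest of the 9. Without that library the log2FC was -0.11. RKM2 (YDR198C; chromosome IV, 852533 to 853972), which encodes the lysine enzyme of Rpl12, had 353, 199 and 208 in wildtype, 203, 276 and 272 in the sam1Δ/sam1Δ libraries and 279, 253 and 376 in those of sam2Δ/sam2Δ. Its highest values were in wildtype replicate 1 and sam2Δ/sam2Δ replicate 3, and the groups overlapped, with a log2FC of 0.29 against wildtype (95% interval -0.39 to 0.96). It was 0.55 without wildtype replicate 1, below the log2FC cutoff although limma's unadjusted P was then under 0.05, and 0.12 without sam2Δ/sam2Δ replicate 3. RKM1 (YPL208W; chromosome XVI, 157842 to 159593), which encodes the Rpl23 enzyme, had 276, 469 and 456 in wildtype, 373, 329.6 and 348 in the sam1Δ/sam1Δ libraries and 352, 540.1 and 417 in those of sam2Δ/sam2Δ. Here wildtype replicate 1 was the lowest of the 9 libraries, the reverse of RKM3, and no group stood apart. The log2FC in sam2Δ/sam2Δ against wildtype was 0.14, and -0.11 without that library. RKM5 (YLR137W; chromosome XII, 417006 to 418109), which encodes the Rpl1 enzyme and had the fewest reads of the 10 genes (65 estimated reads in sam2Δ/sam2Δ replicate 2), had 97.6, 135 and 142 in wildtype, 140.3, 111 and 105 in the sam1Δ/sam1Δ libraries and 108, 142 and 69.7 in those of sam2Δ/sam2Δ. Its lowest value was in sam2Δ/sam2Δ replicate 3, and without that library the log2FC against wildtype went from -0.27 to 0.0056.

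**Figure D2:**
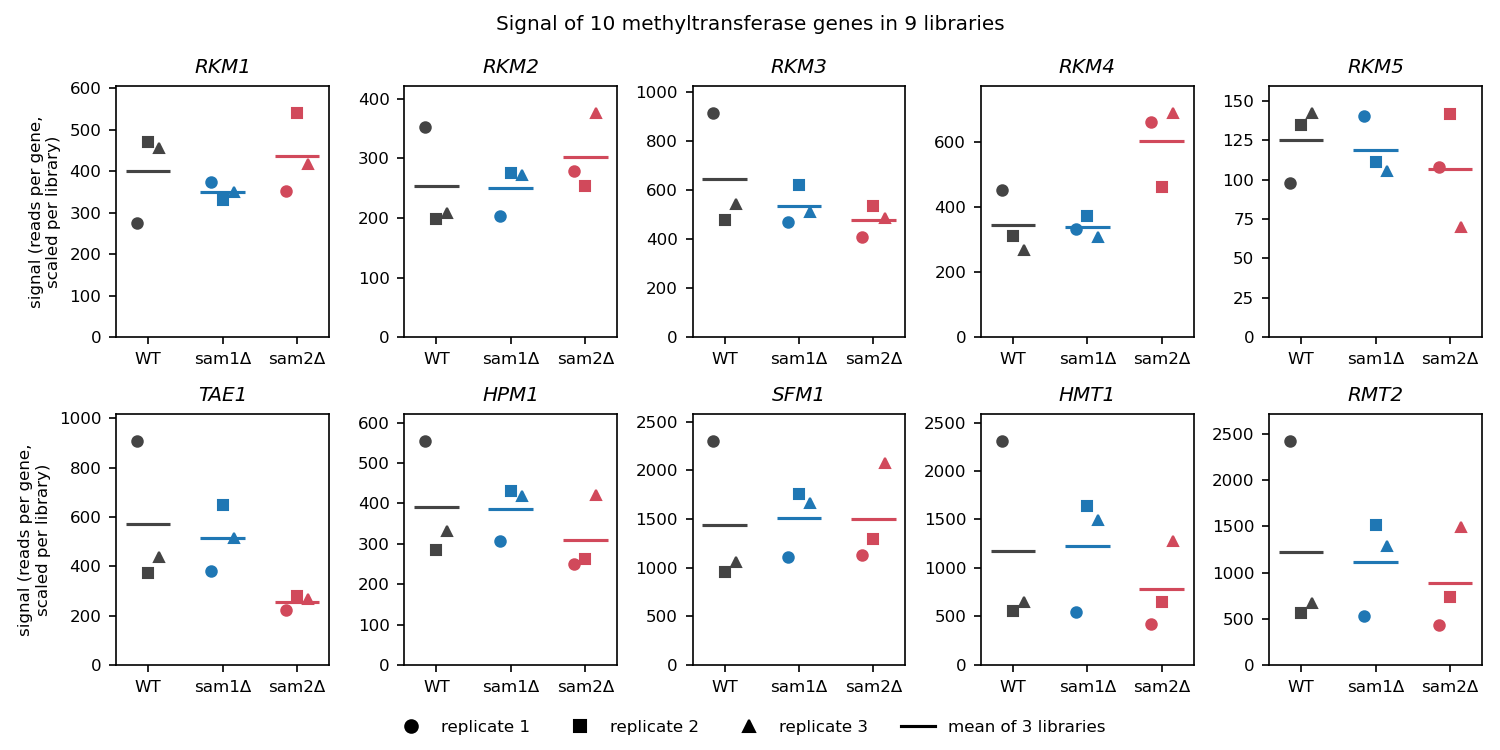
Signal of each of the 10 genes (reads per gene, scaled per library, each axis from 0) in the 3 libraries of wildtype (WT), sam1Δ/sam1Δ and sam2Δ/sam2Δ, with a line at the mean and circles, squares and triangles for replicates 1, 2 and 3. RKM4 is higher and TAE1 lower in the 3 sam2Δ/sam2Δ libraries than in the other 6, while HMT1 and RMT2 spread over a 5.51-fold and a 5.62-fold range with no strain apart.

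TAE1 was the other gene that differed in sam2Δ/sam2Δ, in the opposite direction to RKM4. TAE1 (YBR261C; chromosome II, 734832 to 735530, reverse strand), which encodes the amino-terminal methyltransferase, had signals of 909, 371 and 438 in wildtype, 383, 647 and 515 in the sam1Δ/sam1Δ libraries and 225, 279 and 266 in those of sam2Δ/sam2Δ. All sam2Δ/sam2Δ libraries lay below all 6 others, and within sam2Δ/sam2Δ the highest was 1.24 times the lowest, against 2.45 times in wildtype. The means were 573 ± 294 (SD, n = 3), 515 ± 132 and 256 ± 28.3, on 128 estimated reads or more. TAE1 fell to 0.484 of its wildtype level (log2FC -1.05, SE 0.34, 95% interval -1.87 to -0.23, adjusted P = 0.287, limma), and this too did not pass adjustment. Against sam1Δ/sam1Δ the log2FC was -0.98 (SE 0.33, adjusted P = 0.190, limma). The size of the fall depended on wildtype replicate 1, the highest library: without it the log2FC was -0.66, and without both it and sam2Δ/sam2Δ replicate 3 it was -0.69. The call was lost against wildtype without sam2Δ/sam2Δ replicate 1 (-0.96), and against sam1Δ/sam1Δ without sam1Δ/sam1Δ replicate 2 (-0.80) or sam2Δ/sam2Δ replicate 1 (-0.88). HPM1 (YIL110W; chromosome IX, 156045 to 157178), which encodes the histidine methyltransferase of Rpl3, had 556, 285 and 333 in wildtype, 306, 431 and 419 in the sam1Δ/sam1Δ libraries and 249, 261 and 422 in those of sam2Δ/sam2Δ. Its groups overlapped, with a log2FC of -0.31 in sam2Δ/sam2Δ against wildtype (95% interval -1.08 to 0.46). Leaving out wildtype replicate 1 gave -0.030, and leaving out sam2Δ/sam2Δ replicate 3 gave -0.55.

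The arginine methyltransferase genes varied more between libraries of a strain than between strains. HMT1 (YBR034C; chromosome II, 304930 to 305976) had signals of 2313, 555 and 649 in wildtype, 541, 1637 and 1497 in the sam1Δ/sam1Δ libraries and 419.9, 649 and 1276 in those of sam2Δ/sam2Δ, a 5.51-fold range. RMT2 (YDR465C; chromosome IV, 1393336 to 1394574) had 2428, 564 and 673 in wildtype, 535, 1519.7 and 1284 in the sam1Δ/sam1Δ libraries and 432, 736 and 1497 in those of sam2Δ/sam2Δ, a 5.62-fold range. Both were high in wildtype replicate 1, in sam1Δ/sam1Δ replicates 2 and 3 and in sam2Δ/sam2Δ replicate 3, and low in the other 5 libraries, so every strain held high and low libraries. SFM1 (YOR021C; chromosome XV, 372798 to 373439), which encodes the Rps3 enzyme, had 2305, 959 and 1057 in wildtype, 1105, 1757 and 1664 in the sam1Δ/sam1Δ libraries and 1134, 1294 and 2078 in those of sam2Δ/sam2Δ. It was high in the same 4 libraries over a smaller, 2.40-fold range. In no comparison did these 3 genes pass the cutoffs, and their intervals were wide: in sam2Δ/sam2Δ against wildtype the log2FC was -0.42 for HMT1 (95% interval -1.91 to 1.07), -0.32 for RMT2 (-1.88 to 1.25) and 0.13 for SFM1 (-0.81 to 1.07). The intervals of HMT1 and RMT2, and that of HPM1, include a fall as large as that of TAE1. Those of HMT1, RMT2, SFM1 and RKM2 include a rise as large as that of RKM4. Without wildtype replicate 1 the sign turned for HMT1 (0.23) and RMT2 (0.34), and without sam2Δ/sam2Δ replicate 3 the values were -0.85 and -0.79.

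The same libraries were high for genes of ribosome assembly. On the log2 scale, centred on the mean of 9 libraries, the median of 18 assembly factors was 1.23 in wildtype replicate 1, 0.61 and 0.45 in sam1Δ/sam1Δ replicates 2 and 3 and 0.60 in sam2Δ/sam2Δ replicate 3, and between -0.95 and -0.33 in the other 5. RMT2 had 1.40, 0.73, 0.48 and 0.71 in those 4 libraries and -1.08 to -0.32 in the others, and it ranked the 9 libraries in the same order as the assembly factors. Among the 45 pairs of the 10 genes, HMT1 and RMT2 had the most alike patterns, with a root mean square difference of 0.13 on this scale. The others went with assembly factors to different degrees. TAE1 was high in wildtype replicate 1 (1.15) and in sam1Δ/sam1Δ replicate 2 (0.66) as they were, but low in sam2Δ/sam2Δ replicate 3 (-0.62), where they were high. RKM1 and RKM5 ran the other way in wildtype replicate 1 (-0.49 and -0.22). These likenesses describe 9 libraries that all the genes share, and the part of this pattern in the differences between strains was not tested.

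**Figure D3:**
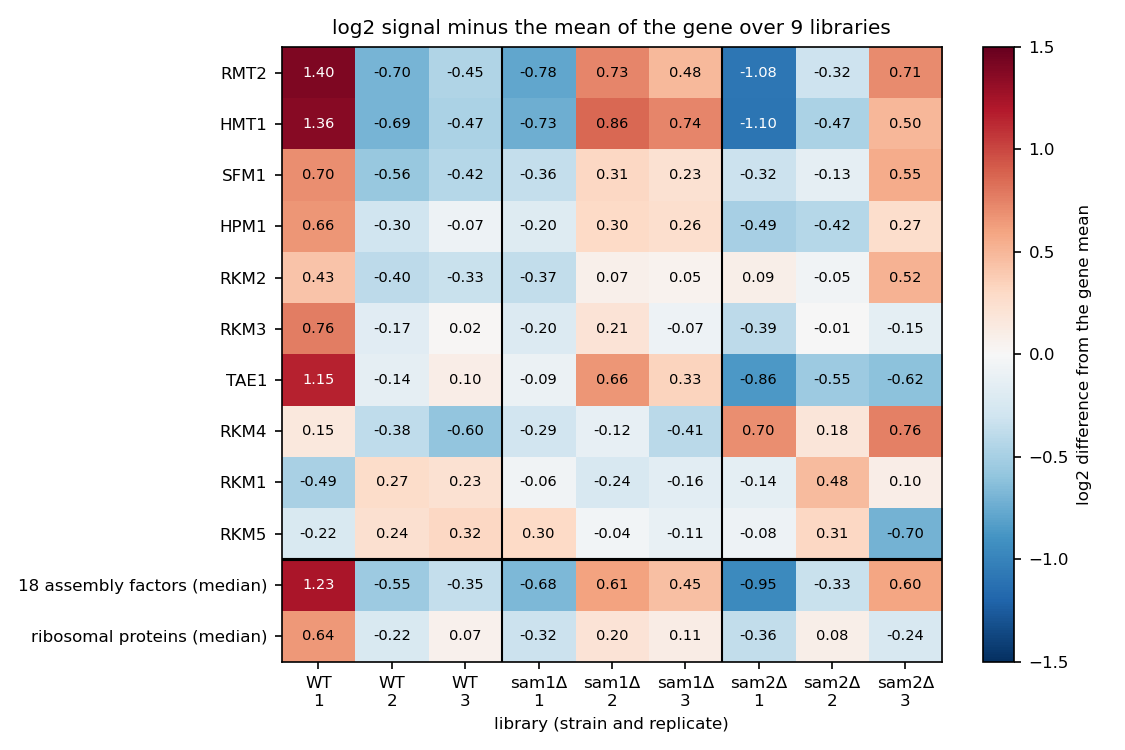
Log2 signal of each gene minus its mean over 9 libraries (columns: strain and replicate; colour from -1.5 to 1.5), with the medians of 18 assembly factors and of the ribosomal protein genes in the lower rows. RMT2, HMT1, SFM1 and HPM1 lie above their means in the same libraries as the assembly factors. RMT2 has 1.40 in wildtype replicate 1 and -1.08 in sam2Δ/sam2Δ replicate 1. RKM4 is highest and TAE1 lowest in the sam2Δ/sam2Δ libraries. TAE1 is also high in wildtype replicate 1 (1.15), as the assembly factors are.

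Counted over the 10 genes, 2 passed the cutoffs in sam2Δ/sam2Δ against wildtype, RKM4 higher and TAE1 lower, beside 9.85% of 6099 genes tested, and the same 2 genes passed against sam1Δ/sam1Δ, beside 10.2% of 6139. With 10 genes, a count of 2 cannot be read as more than the background. The groups were apart for the same 2 of 10 in each of these comparisons, a share below the 22.3% and 25.4% of all genes. Without wildtype replicate 1, without sam2Δ/sam2Δ replicate 3 or without both, none of the other 8 genes passed the cutoffs in either comparison. None of the 10 passed an adjusted P of 0.05 with limma (backgrounds 0.0982%, 0.115% and 0.603% in the order given above), and in the sam2Δ/sam2Δ comparisons RKM4 and TAE1 were the 2 of 10 with an unadjusted limma P of at most 0.05, reached by 13.3% and 16.7% of all genes. In sam1Δ/sam1Δ against wildtype 0 of 10 passed the cutoffs, 0 of 10 reached an unadjusted limma P of 0.05, beside 2.10% of 6109 genes, and all 10 overlapped. Their log2FC there ran from -0.23 for RKM3 to 0.22 for HMT1, with RKM4 at 0.0012 (95% interval -0.54 to 0.54) and TAE1 at -0.071 (-0.99 to 0.85). The median log2FC of the 10 was 0.010 in sam1Δ/sam1Δ and -0.29 in sam2Δ/sam2Δ against wildtype, beside -0.012 and -0.0075 over all genes tested. The sign of the median in sam2Δ/sam2Δ rested on single libraries, being 0.099 when wildtype replicate 1 was left out and 0.030 when sam2Δ/sam2Δ replicate 1 was, and in sam1Δ/sam1Δ it ran from -0.14 without wildtype replicate 2 to 0.29 without wildtype replicate 1, so no shift of the 10 genes as a group can be read from it.

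**Figure D4:**
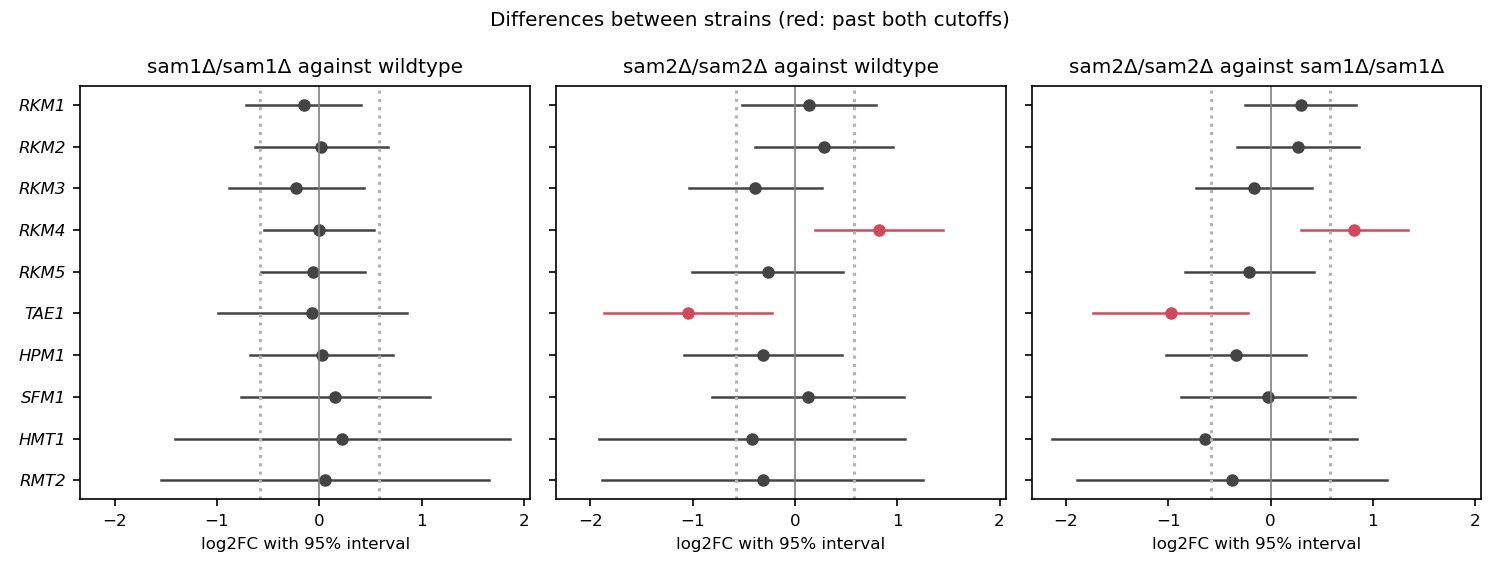
Log2FC of the 10 genes with 95% intervals by limma in the 3 comparisons (dotted lines at a log2FC of 0.58 in either direction, red for genes past both cutoffs). RKM4 (0.82 against wildtype and 0.82 against sam1Δ/sam1Δ) and TAE1 (-1.05 and -0.98) are past the cutoffs in sam2Δ/sam2Δ and near 0 in sam1Δ/sam1Δ, and HMT1 and RMT2 have the widest intervals.

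Ratios within a library show pairs of the genes against each other without the scaling between libraries. RKM4 and RKM3 encode enzymes of the same protein, as do RKM2 and TAE1, while RMT2 and HMT1 are both arginine methyltransferase genes. The ratios were chosen after the values were seen and are given with no test. For the Rpl42 enzymes, the ratio of RKM4 to RKM3 in signal per kb was 0.553, 0.727 and 0.551 in wildtype, 0.792, 0.671 and 0.670 in the sam1Δ/sam1Δ libraries and 1.79, 0.967 and 1.58 in those of sam2Δ/sam2Δ. RKM3 was thus the higher transcript of the pair in all 6 libraries of wildtype and sam1Δ/sam1Δ, and RKM4 was higher in 2 of 3 sam2Δ/sam2Δ libraries. For the Rpl12 enzymes, the ratio of RKM2 to TAE1 was 0.188, 0.260 and 0.231 in wildtype, 0.258, 0.207 and 0.256 in the sam1Δ/sam1Δ libraries and 0.603, 0.440 and 0.687 in those of sam2Δ/sam2Δ. TAE1 stayed the higher transcript in every library, by less in sam2Δ/sam2Δ. The ratio of RMT2 to HMT1 was 0.887, 0.858 and 0.876 in wildtype, 0.835, 0.785 and 0.724 in the sam1Δ/sam1Δ libraries and 0.869, 0.958 and 0.992 in those of sam2Δ/sam2Δ. It stayed within this narrow range although both genes varied 5.62-fold and 5.51-fold across libraries, and the 3 sam1Δ/sam1Δ values lay below the other 6.

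**Figure D5:**
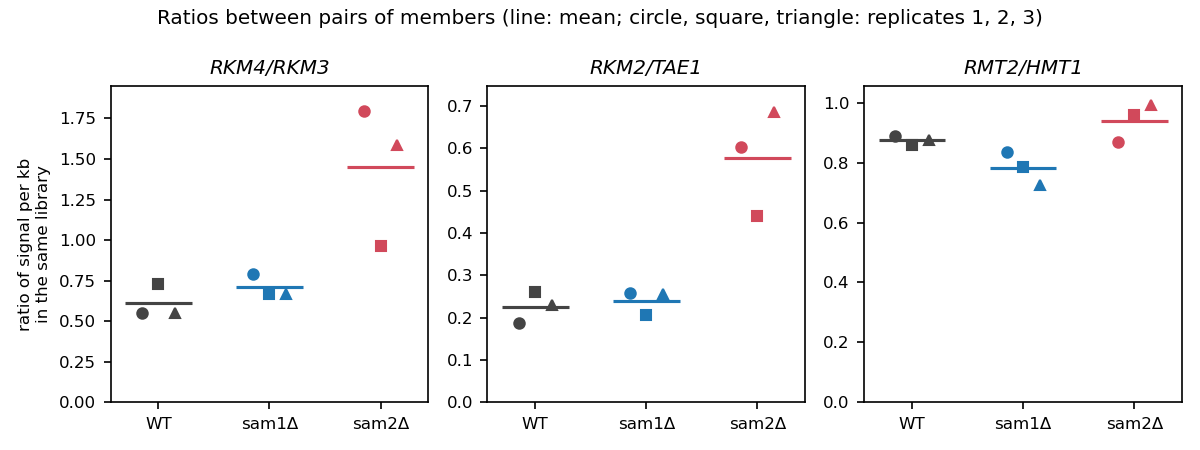
Ratio of signal per kb between 2 genes of the same library for RKM4/RKM3, RKM2/TAE1 and RMT2/HMT1 (axes from 0; line at the mean; circle, square and triangle for replicates 1, 2 and 3). The mean RKM4/RKM3 ratio is 0.610 in wildtype, 0.711 in sam1Δ/sam1Δ and, highest of the strains, 1.45 in sam2Δ/sam2Δ. The mean RKM2/TAE1 ratio is 0.226, 0.240 and 0.577.

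Of 5098 genes alone at their locus, those most like RKM4 over the 9 libraries were YMC2, a mitochondrial carrier gene (root mean square difference of the centred log2 signal 0.117), POP4, which encodes a subunit of RNase P and RNase MRP (0.124), and SKP2 (0.128). YMC2 had signals of 439, 268 and 215 in wildtype and 642, 383 and 629 in sam2Δ/sam2Δ, where only sam2Δ/sam2Δ replicate 2 lay below the highest wildtype library. Those most like TAE1 were CCS1, the copper chaperone of superoxide dismutase (0.109), TIM23, of the mitochondrial import channel (0.149), and CYC3, which encodes cytochrome c heme lyase (0.151). CCS1 had 3004, 1350.3 and 1518 in wildtype and 777, 1124 and 988 in sam2Δ/sam2Δ, with the groups apart as for TAE1. The likeness was the criterion by which these genes were chosen, so it is given with no test.

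The genes of the substrates were then compared in the same fits. Of 15 ribosomal protein genes whose products these enzymes methylate, 0 passed the cutoffs in any comparison. In sam2Δ/sam2Δ against wildtype all 15 had a negative log2FC, from -0.58 to -0.13 with a median of -0.36, and so did 129 of 136 ribosomal protein genes tested, with a median of -0.34. In sam1Δ/sam1Δ 14 of 15 and 129 of 136 were negative as well, with medians of -0.15 and -0.15, and both comparisons share the wildtype libraries. Wildtype replicate 1 again stood apart: the centred log2 median of the ribosomal protein genes was 0.64 there, against -0.22 and 0.070 in the other wildtype libraries. Without it the median of the 15 was -0.089 in sam2Δ/sam2Δ and 0.11 in sam1Δ/sam1Δ, and that of the ribosomal protein genes -0.13, with 94 of 136 negative, and 0.075, with 44 of 135 negative. Without sam2Δ/sam2Δ replicate 3 the medians in sam2Δ/sam2Δ were -0.34, with all 15 negative, and -0.30, with 125 of 136 negative. Without both libraries they were -0.12 and -0.099. RPL12A and RPL12B, whose protein is the shared substrate of Rkm2, Tae1 and Rmt2, were at -0.52 and -0.39 (adjusted P = 0.545 and 0.665, limma), and RPL42A and RPL42B, the genes for the Rkm3 and Rkm4 substrate, at -0.34 and -0.31. Without wildtype replicate 1 these values were -0.21, -0.058, -0.089 and -0.24, and without sam2Δ/sam2Δ replicate 3 they were -0.60, -0.38, -0.38 and -0.22. The pairs are near-identical copies whose reads the program had to divide, so the split between copies is uncertain, and RPL12A and RPL12B also share their loci with other annotated genes. In sam1Δ/sam1Δ the groups were apart for 2 of the 15, RPL3 and RPL42B, beside 6.53% of all genes. RPL3, the gene for the Hpm1 substrate, had signals of 31008, 34016 and 32806 in sam1Δ/sam1Δ against 57650.4, 40984 and 42024 in wildtype. All sam1Δ/sam1Δ libraries were lower, but the log2FC of -0.51 (SE 0.24, adjusted P = 0.9997, limma) did not pass the cutoffs, and neither did that of RPL42B (-0.27).

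Of 9 other genes whose products Hmt1 methylates, 0 passed the cutoffs as well when no library was left out. Their median log2FC was -0.61 in sam2Δ/sam2Δ and -0.10 in sam1Δ/sam1Δ against wildtype, and -0.27 and 0.22 without wildtype replicate 1. In sam2Δ/sam2Δ it was -0.28 without sam2Δ/sam2Δ replicate 3 and -0.39 without both. Without wildtype replicate 1, 1 of the 9 passed in sam2Δ/sam2Δ against wildtype and 2 against sam1Δ/sam1Δ. Without both libraries, 1 and 4 passed. The fibrillarin gene NOP1 had 6793, 1418 and 2054 in wildtype, 1389, 3644 and 3025 in the sam1Δ/sam1Δ libraries and 803, 1631 and 2181 in those of sam2Δ/sam2Δ. Like HMT1 itself, it was highest in wildtype replicate 1 and lowest in sam2Δ/sam2Δ replicate 1, and GAR1, NSR1 and NPL3 shared both extremes. HRP1, which encodes an mRNA 3' end processing factor, went the opposite way, with 1538, 5931 and 7458 in wildtype, 5883, 2194 and 2347 in the sam1Δ/sam1Δ libraries and 3011, 4591 and 1370.5 in those of sam2Δ/sam2Δ. Its 4 lowest libraries were the 4 in which HMT1 was highest, and the same held for SBP1. NPL3, the mRNA export factor known as a main Hmt1 substrate, had 5703, 2729 and 2732 in wildtype, 2419, 4083 and 4118 in the sam1Δ/sam1Δ libraries and 1949, 2229.8 and 2537 in those of sam2Δ/sam2Δ, with all sam2Δ/sam2Δ libraries below those of wildtype (log2FC -0.65, adjusted P = 0.445, limma), and the log2FC was -0.29 without wildtype replicate 1. It was -0.74 without sam2Δ/sam2Δ replicate 3 and -0.39 without both. NPL3, NSR1 and SBP1 share their loci with other annotated genes, so their values are estimates of the program.

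Other protein methyltransferase genes served for comparison. Of 19, which include the 7 elongation factor methyltransferases EFM1 to EFM7 and the partner protein gene TRM112, 0 passed the cutoffs in sam1Δ/sam1Δ, beside 1.15% of all genes tested. In each sam2Δ/sam2Δ comparison 1 of the 19 passed and 2 of the 10 genes described here, beside 9.85% and 10.2% of all genes. Counts this small cannot be told apart from these shares or from each other. The 1 that passed was DPH5, the diphthamide methyltransferase of elongation factor eEF2, with 2959.8, 2178 and 2743 in wildtype, 2202, 2683 and 2491 in the sam1Δ/sam1Δ libraries and 1204, 2249.6 and 1407 in those of sam2Δ/sam2Δ. It was lower in sam2Δ/sam2Δ than in wildtype by a log2FC of -0.74 (adjusted P = 0.329, limma), although sam2Δ/sam2Δ replicate 2 overlapped wildtype. This call was lost without wildtype replicate 1 (-0.65), wildtype replicate 3 (-0.70), sam2Δ/sam2Δ replicate 1 (-0.55) or sam2Δ/sam2Δ replicate 3 (-0.66), and against sam1Δ/sam1Δ without sam1Δ/sam1Δ replicate 2 (-0.58), sam1Δ/sam1Δ replicate 3 (-0.64), sam2Δ/sam2Δ replicate 1 (-0.46) or sam2Δ/sam2Δ replicate 3 (-0.57). TRM112, which activates several methyltransferases, had 982, 332 and 366 in wildtype and 229, 253 and 319 in sam2Δ/sam2Δ, lower in each library, and did not pass (log2FC -0.90, adjusted P = 0.424, limma), with a log2FC of -0.40 without wildtype replicate 1. Its log2FC was -1.03 without sam2Δ/sam2Δ replicate 3 and -0.53 without both, and TRM112 passed against wildtype when wildtype replicate 2 was left out (-1.18). The median log2FC of the 7 elongation factor enzymes in sam2Δ/sam2Δ against wildtype was -0.35 and that of the 18 assembly factors -0.41, with 0 past the cutoffs in both lists, and these medians were 0.035 and 0.12 without wildtype replicate 1. Without sam2Δ/sam2Δ replicate 3 they were -0.36 and -0.77, with all 18 assembly factors negative. Without both libraries they were -0.059 and -0.25, and 2 of the 18 assembly factors then passed the cutoffs.

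The promoter windows of the genes were read from the R64 genome, from 250 bases before to 50 bases after the first base of the start codon, and searched on both strands for GATGAG, the core of the PAC element, and AAAATTTT, the core of the RRPE element, which are known from the promoters of ribosome assembly genes. Of all 6001 windows 20.4% held GATGAG, 9.03% AAAATTTT and 4.38% both. Among the 10 genes, 7 held GATGAG and 2 both motifs, and these 2 were HMT1 and RMT2, the pair with the most alike patterns. Of the 18 assembly factors all held GATGAG and 17 both, against 15 and 1 of 137 ribosomal protein genes. The windows of HMT1 and RMT2 are shown for these motifs, and those of RKM4 and TAE1, the genes that differed in sam2Δ/sam2Δ, because neither has a match. They are HMT1 at chrII:305927-306226, RMT2 at chrIV:1394525-1394824, RKM4 at chrIV:971425-971724 and TAE1 at chrII:735481-735780, all on the reverse strand and printed 5′ to 3′ along the gene, with motif matches in capitals.
HMT1: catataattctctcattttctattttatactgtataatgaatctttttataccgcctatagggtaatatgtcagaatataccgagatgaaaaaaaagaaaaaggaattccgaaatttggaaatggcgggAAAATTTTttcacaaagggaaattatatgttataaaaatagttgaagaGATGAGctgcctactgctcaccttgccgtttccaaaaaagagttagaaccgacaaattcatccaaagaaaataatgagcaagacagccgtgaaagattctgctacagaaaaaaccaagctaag
RMT2: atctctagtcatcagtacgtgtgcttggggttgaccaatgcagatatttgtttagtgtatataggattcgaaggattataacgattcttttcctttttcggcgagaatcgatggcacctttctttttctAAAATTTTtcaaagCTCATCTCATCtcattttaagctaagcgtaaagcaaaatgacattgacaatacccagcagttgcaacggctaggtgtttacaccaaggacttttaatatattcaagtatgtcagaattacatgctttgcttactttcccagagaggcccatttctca
RKM4: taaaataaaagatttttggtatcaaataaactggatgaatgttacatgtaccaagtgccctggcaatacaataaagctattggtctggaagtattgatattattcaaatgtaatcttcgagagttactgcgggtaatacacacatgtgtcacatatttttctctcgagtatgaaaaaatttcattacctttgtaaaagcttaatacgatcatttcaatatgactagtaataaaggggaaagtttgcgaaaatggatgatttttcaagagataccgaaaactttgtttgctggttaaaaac
TAE1: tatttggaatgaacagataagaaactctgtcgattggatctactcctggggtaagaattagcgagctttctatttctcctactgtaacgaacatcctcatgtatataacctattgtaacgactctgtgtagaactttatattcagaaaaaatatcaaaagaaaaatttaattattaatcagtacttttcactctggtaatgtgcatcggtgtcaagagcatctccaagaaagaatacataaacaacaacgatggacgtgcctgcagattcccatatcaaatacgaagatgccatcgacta

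In HMT1 the AAAATTTT match began 121 bases before the start codon and the GATGAG match 73 bases before it. In RMT2 the AAAATTTT match also began 121 bases before the start codon, followed by 2 GATGAG matches on the opposite strand at 107 and 102 bases, which read CTCATC and share 1 base. In RKM2, RKM3 and SFM1 a GATGAG match lay 81, 77 and 109 bases before the start codon, while in RKM5 and HPM1 the match lay 25 and 43 bases inside the coding sequence. RKM1, RKM4 and TAE1 had no match. The window of TAE1 overlaps the neighbouring gene MIC12 and that of RKM1 overlaps IPL1. A match describes the letters of the window and not binding, and a window without a match says nothing about which factors act there.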

How the data were processed

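RNA was sequenced from 9 libraries, 3 for each strain, with a stranded poly-A kit. Per the labels, the authors aligned reads with TopHat2 2.0.13 to the R64-1-1 assembly and made gene values with the Cufflinks programs and Cuffnorm 2.2.1. The annotation release and the normalization setting are not given in the sources used here. The deposited table holds 1 signal for each gene and library, estimated reads divided by a size factor, as 96.7 to 98.4% of the values of a library lie within 0.05 of a whole multiple of its step. It has 0 value columns without a sample.

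Here log2(signal + 1) was compared with limma 3.58.1 in R 4.3.3 with a mean-variance trend, without further scaling, keeping genes whose signal reached 10 in 3 or more libraries. A log2FC on this scale understates the change of low genes. The fit of a mutant against wildtype held 6 libraries, the fit of mutant against mutant all 9, with Benjamini-Hochberg adjustment over all genes tested, and the script was tested on simulated data. The simulated noise was independent for each gene, so it held no pattern shared by genes such as that of the assembly factors. All 10 genes passed the filter in every comparison, and each lies alone at its locus. A gene was counted when its P, before adjustment, was 0.05 or less and its log2FC reached 0.58 in either direction, the limits set by the study. The study applied these limits with another test, Cuffdiff, so its calls differ. It lists RKM4 as higher and TAE1, DPH5, EFM3, EFM6, NOP1 and TRM112 as lower in sam2Δ/sam2Δ. Of these, EFM3, EFM6, NOP1 and TRM112 did not pass with limma. Named genes are the 10, SAM1 and SAM2, the substrate genes, the other protein methyltransferases, and for each of the 10 past the cutoffs the 3 genes with the most alike pattern. The genes and lists were chosen with earlier results of these data known. Coordinates are 1-based, on R64 (RefSeq), and figures were drawn with matplotlib 3.10.9. Alternatives were the pseudocount, the filter, the scaling, the libraries in the fit, limma-voom, a replicate block, and leaving out libraries. Tests for read counts, planned for the case that whole reads could be recovered, were not run, because every column also holds fractional values below its step, and limma-voom was run on the estimated reads rounded to whole numbers.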

Additional observations from a re-analysis of the deposited data

How the results depend on the processing

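RKM4 and TAE1 stayed past the cutoffs in both sam2Δ/sam2Δ comparisons under pseudocounts of 0.5 and 5, no filter, a mean signal of at least 50, median-of-ratios factors, trimmed mean factors, scaling to the same library total, another choice of libraries in the fit, limma-voom and the replicate block, and no other of the 10 genes passed under any of these. At an adjusted P of 0.05, 0 of the 10 passed in any comparison, and 6, 7 and 37 of all genes passed in sam1Δ/sam1Δ against wildtype, sam2Δ/sam2Δ against wildtype and sam2Δ/sam2Δ against sam1Δ/sam1Δ. When 1 library was left out, 0 to 2 of the 10 passed in sam2Δ/sam2Δ against wildtype, 1 to 2 against sam1Δ/sam1Δ and 0 in sam1Δ/sam1Δ against wildtype, and the counts over all genes ran from 412 to 749, from 442 to 812 and from 41 to 355, the last highest without wildtype replicate 1 (main counts 601, 625 and 70). With the replicate block the counts over all genes were 389, 523 and 51. The numbers were not taken to pair the libraries, since the deviations of same-numbered libraries did not go together throughout: they correlated at -0.85, -0.78 and -0.60 for wildtype with sam1Δ/sam1Δ, at -0.66, 0.14 and -0.64 for wildtype with sam2Δ/sam2Δ and at 0.69, -0.19 and 0.65 for sam1Δ/sam1Δ with sam2Δ/sam2Δ. The block changed no call of the 10 genes. Without wildtype replicate 1 and sam2Δ/sam2Δ replicate 3 together, an alternative chosen after seeing the data as was limma-voom, 1059 genes passed in sam2Δ/sam2Δ against sam1Δ/sam1Δ.

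Small differences changed sign. In sam1Δ/sam1Δ against wildtype, RKM4 went to -9.62e-05 with median-of-ratios factors, and RKM5 and TAE1 to 0.038 and 0.030 with the same library total. In sam2Δ/sam2Δ against sam1Δ/sam1Δ, SFM1 went to 0.030 with the same library total and 0.00684 with limma-voom. Without wildtype replicate 1 and sam2Δ/sam2Δ replicate 3, RKM1 went to -0.086 against wildtype and RKM5 to 0.067 against sam1Δ/sam1Δ. With 1 library left out, the log2FC ran from -0.13 to 0.28 for RKM2, -0.41 to 0.053 for RKM3, -0.16 to 0.22 for RKM4, -0.23 to 0.042 for RKM5, -0.33 to 0.32 for TAE1, -0.17 to 0.31 for HPM1, -0.078 to 0.55 for SFM1, -0.16 to 0.87 for HMT1 and -0.33 to 0.72 for RMT2 in sam1Δ/sam1Δ against wildtype, from -0.11 to 0.28 for RKM1, 0.12 to 0.55 for RKM2, -0.57 to -0.11 for RKM3, -0.50 to 0.0056 for RKM5, -0.55 to -0.030 for HPM1, -0.13 to 0.53 for SFM1, -0.85 to 0.23 for HMT1 and -0.79 to 0.34 for RMT2 in sam2Δ/sam2Δ against wildtype, and from -0.44 to 0.067 for RKM5, -0.29 to 0.15 for SFM1 and -0.85 to 0.050 for RMT2 in sam2Δ/sam2Δ against sam1Δ/sam1Δ. The cause was not tested. The count tests planned for the case of recovered whole reads were not run, because every column also holds fractional values below 1 read, so how the calls of RKM4 and TAE1 would stand under them is not known. With 3 libraries a strain, a gene that varies like HMT1 or RMT2 allows only a wide interval, and RKM5 rests on as few as 65 estimated reads.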
